A study of Mus musculus with 18 samples.

Results

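Fcf1, Tsacc, Pfdn6, Tmem126b, Med29 and Pin4 are 6 mouse genes whose transcripts were plentiful in immature oocytes of young mice and far lower in their mature eggs. They were chosen by hand for that difference, from among the genes with the largest falls from the germinal vesicle (GV) stage to metaphase II (MII) in young controls. They are 6 of the 47069 genes in the deposited tables and 6 of the 12161 kept by a filter on low counts. All 6 were high enough in their GV groups to pass that filter, so counts over them are descriptions.

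RNA was sequenced from single oocytes of C57BL/6JAusb mice. The young controls were 4 weeks old and the aged controls 12 months old, both on plain drinking water, and the third condition was 12-month-old mice whose water held NMN (nicotinamide mononucleotide, from which cells make NAD) at 2 g/L for 4 weeks. Each condition has GV oocytes, which are arrested in prophase of the first meiotic division with an intact nucleus, and MII oocytes, which have matured and await fertilisation. After 1 library with 5008 counts was dropped and a pair of identical libraries was counted once, 16 oocytes remained, with 2 GV oocytes each in young and aged controls, 3 GV oocytes with NMN, and 3 MII oocytes in each condition. The labels describe a soft lysis of each oocyte after which the nucleus was spun down, so the library holds RNA of the supernatant; an MII oocyte has no nucleus to pellet. The labels name no animals. Each group therefore counts as a single sample, groups are compared without tests, and the SD and range below are between oocytes.

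A fully grown GV oocyte has stopped transcription and lives on stored mRNA. During maturation a part of this store is polyadenylated and translated, and another part is deadenylated and degraded, for which the adaptor Btg4 and the CCR4-NOT deadenylase are known. Fcf1 encodes a PIN-domain protein of the small-subunit processome, whose yeast counterpart cuts the ribosomal RNA precursor. Pfdn6 is a subunit of prefoldin, which hands unfolded actin and tubulin to the CCT chaperonin. Tmem126b is an assembly factor of mitochondrial complex I, Med29 a subunit of the Mediator complex of RNA polymerase II, and Pin4 a parvulin-type prolyl isomerase. Tsacc is a co-chaperone known from mouse spermatids, where it serves a testis-specific kinase of the TSSK family.

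Depth was alike at both stages. GV libraries held 2756183 to 5230007 counts and 8825 to 13816 detected genes, and MII libraries held 2842358 to 5586857 counts and 5679 to 13477 genes. The 3 MII oocytes with NMN had the fewest detected genes, with 6444, 5679 and 7725. Levels are given as scaled CPM, the usual share of a library's counts, corrected for differences in composition between libraries, and 3 counts amounted to 0.526 to 1.15 scaled CPM in a GV library and 0.467 to 1.19 in an MII library. Titles name a batch 2, whose libraries had fractional counts in 11.7 to 14.5% of detected genes, against 19.3 to 27.5% in the others, apart from the library deposited under titles of both batches, at 14.4%. CPM is a share of a library, and total RNA per oocyte was not measured. How cDNA was primed is not given in the sources used here, so less of an RNA and a lower capture of it cannot be told apart. The summed level of 12 oocyte markers was 6741 to 19785 CPM at the GV stage and 2209 to 24614 CPM at MII, and all 12 were detected at both stages. Single oocyte markers moved both ways. In young, aged and NMN oocytes 3, 6 and 7 of 12 were at least 4-fold lower in MII, against 14.9, 19.7 and 28.8% of all genes. At least 4-fold higher in MII were 2, 1 and 0 of 12, a description only, since the share of all genes in that direction is not given. On the log2 scale Figla was at -5.73, -4.95 and -6.14 in young, aged and NMN oocytes, and Dazl at 3.22, 2.09 and 1.23. The summed level of 14 cumulus and granulosa markers was 8.84 to 89.8 CPM at the GV stage and 0 to 294 CPM at MII, with Amh, Amhr2 and Foxl2 at 0 in every group. Gja1 had means of 0 CPM in young GV and 102 ± 92.6 CPM (n = 3) in young MII oocytes. Its GV and MII means were 3.21 and 14.8 CPM in aged controls and 5.65 and 0 CPM with NMN. In young GV and MII oocytes Tnfaip6 was at 0 and 15.3 CPM and Cyp19a1 at 20.7 and 21.9 CPM. The part of these markers in the results was not tested.

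The genes lie on 5 chromosomes, in GRCm38 coordinates of GENCODE vM21. Fcf1 (ENSMUSG00000021243) spans chr12:84970897-84983303 on the plus strand and Tsacc (ENSMUSG00000010538) spans chr3:88282757-88296999 on the minus strand. Pfdn6 (ENSMUSG00000024309) spans chr17:33938821-33940343, Tmem126b (ENSMUSG00000030614) chr7:90467438-90476001 and Med29 (ENSMUSG00000003444) chr7:28386146-28392708, all on the minus strand. Pin4 (ENSMUSG00000079480) spans chrX:102119447-102127669 on the plus strand. Whether reads were counted by strand is not given in the sources used here, so reads of an overlapping gene could be counted for a member. Fcf1 overlaps Arel1 by 4 bases on the opposite strand. Tsacc shares 4454 bases with Gm38392, which had 0 to 10.3 CPM in GV oocytes against 70.5 to 297 CPM for Tsacc, and covers the pseudogene Gm37116, which was at 0 in every oocyte. Pfdn6 and Med29 each overlap an annotated antisense RNA, CR974462.1 and Gm44710, which were not analysed here.

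The promoters of members that share a pattern are shown for what letters they hold in common. RefSeq sequence of the 250 bases before the gene start (GRCm38.p6) was matched for 5 members, all but Fcf1. The box CCAAT, searched on both strands and so also as ATTGG, was in 4 of these 5, against 37.15% of 9020 promoters of kept genes. It was found 2 times for Tsacc, 1 time for Tmem126b, 3 times for Med29 and 1 time for Pin4, and not for Pfdn6. Of 3 other motifs searched on both strands, GGGCGG was in 3 of 5 against 56.63%, CCGGAA in 1 of 5 against 23.1% and TATAAA in 0 of 5 against 6.9%. The Tsacc (chr3:88297000-88297249), Med29 (chr7:28392691-28392940) and Pfdn6 (chr17:33940344-33940593) windows, all read on the minus strand, are printed with each CCAAT or ATTGG in capitals. Matches of the other motifs are left in lower case, which are 1 GGGCGG for Tsacc, 2 GGGCGG for Med29 and 1 CCGGAA for Pfdn6.
Tsacc: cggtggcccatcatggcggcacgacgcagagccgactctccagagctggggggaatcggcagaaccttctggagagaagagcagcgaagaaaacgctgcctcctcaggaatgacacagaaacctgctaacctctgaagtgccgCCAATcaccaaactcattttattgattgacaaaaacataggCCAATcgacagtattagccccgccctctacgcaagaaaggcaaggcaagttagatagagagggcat
Med29: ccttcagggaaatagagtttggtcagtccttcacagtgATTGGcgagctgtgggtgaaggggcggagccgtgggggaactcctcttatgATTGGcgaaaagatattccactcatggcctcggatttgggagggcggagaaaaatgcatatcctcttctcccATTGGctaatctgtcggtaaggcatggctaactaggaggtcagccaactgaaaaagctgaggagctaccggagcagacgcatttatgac
Pfdn6: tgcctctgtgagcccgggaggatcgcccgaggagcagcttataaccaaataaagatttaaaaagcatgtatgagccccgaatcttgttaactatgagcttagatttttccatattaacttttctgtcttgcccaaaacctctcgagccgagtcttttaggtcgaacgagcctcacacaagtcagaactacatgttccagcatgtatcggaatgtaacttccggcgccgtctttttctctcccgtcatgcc
The motifs were picked after the sequences had been seen. A match is a description of these letters only.

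The ends of the transcripts are shown because cytoplasmic polyadenylation signals are known to mark stored oocyte mRNAs that are kept for translation. In the last 100 bases of 1 GENCODE transcript per gene, the cytoplasmic polyadenylation elements TTTTAT and TTTTAAT, searched on the sense strand, were in 0 of 6 members and in 19.59% of 10753 kept protein-coding genes. The cleavage signals AATAAA or ATTAAA were in 3 of 6 members, Fcf1, Tmem126b and Pin4, and in 81.42% of those genes. Tsacc, Pfdn6 and Med29 had neither, and whether their annotated ends are complete was not tested. In Tsacc, Pin4 and Fcf1 the window was longer than the annotated 3′ untranslated region, so it also held coding bases. The 0 of 6 thus describes these windows only. The 30 bases around the last signal of Fcf1, Tmem126b and Pin4 are printed with the signal in capitals.
Fcf1: tcttgtcagttaATTAAAcacattttctga
Tmem126b: tcacaatcaataaaaagttcAATAAAaagg
Pin4: ttgaagggagaaAATAAAatcacatgaaag
The signal ended 24, 4 and 17 bases before the annotated end of Fcf1, Tmem126b and Pin4, and 1 more AATAAA stands in the printed Tmem126b bases in lower case. The 3′ untranslated regions of Tsacc, Pin4, Fcf1 and Pfdn6 were annotated at 10, 18, 86 and 167 bases, longer than those of 0.93, 1.09, 4.23 and 9.95% of kept protein-coding genes, and those of Med29 and Tmem126b at 636 and 1540 bases, against a median of 1089.

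Fcf1 was by far the most abundant of the 6 in GV oocytes. It stood at 7693 and 4752 CPM in the young controls, 1399 and 3711 CPM in the aged controls, and 1229, 1218 and 5355 CPM in the NMN oocytes. No GV oocyte held less than 1218 CPM of it, and the young and aged groups did not overlap, while aged controls and NMN oocytes did. Per length, this put Fcf1 at 11015 and 7424 TPM in the young controls, and its rank among the genes of a GV library ran from 9 to 61. Its MII levels were 33.9, 13.1 and 5.16 CPM in the young controls, 26.0, 23.5 and 40.4 CPM in the aged controls, and 0, 0 and 36.6 CPM with NMN. Its rank by TPM among the genes of the 7 MII libraries that held it ran from 1243 to 4284. Its counts in these libraries ran from 25 to 162, above the level of 3 counts. The 2 NMN oocytes at 0 are the 2 with the fewest detected genes of all 16, and the part of that in the 0 was not tested. Group means were 6222 ± 2079 (SD, n = 2), 2555 ± 1635 (n = 2) and 2600.4 ± 2385 CPM (n = 3) in GV and 17.4 ± 14.8, 30.0 ± 9.08 and 12.2 ± 21.1 CPM (n = 3 each) in MII, in the order young, aged and NMN. Fcf1 took 79.8% of the counts of the 6 genes in GV oocytes (exact binomial 95% interval 79.6 to 80.1%). Its share at MII was 84.1% (81.5 to 86.5%). Both intervals are for counting error in pooled counts and leave out the spread between oocytes. Split by group, the GV share was 83.2% (young), 77.5% (aged) and 76.0% (NMN), each outside the pooled GV interval. The matching MII shares were 86.0, 82.5 and 84.8%, each inside the pooled MII interval. That interval is wider, since it rests on 881 counts against 118971 in GV oocytes. All 117 Fcf1 counts behind the NMN share at MII came from 1 oocyte, so that share describes no typical NMN oocyte.

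**Figure D1:**
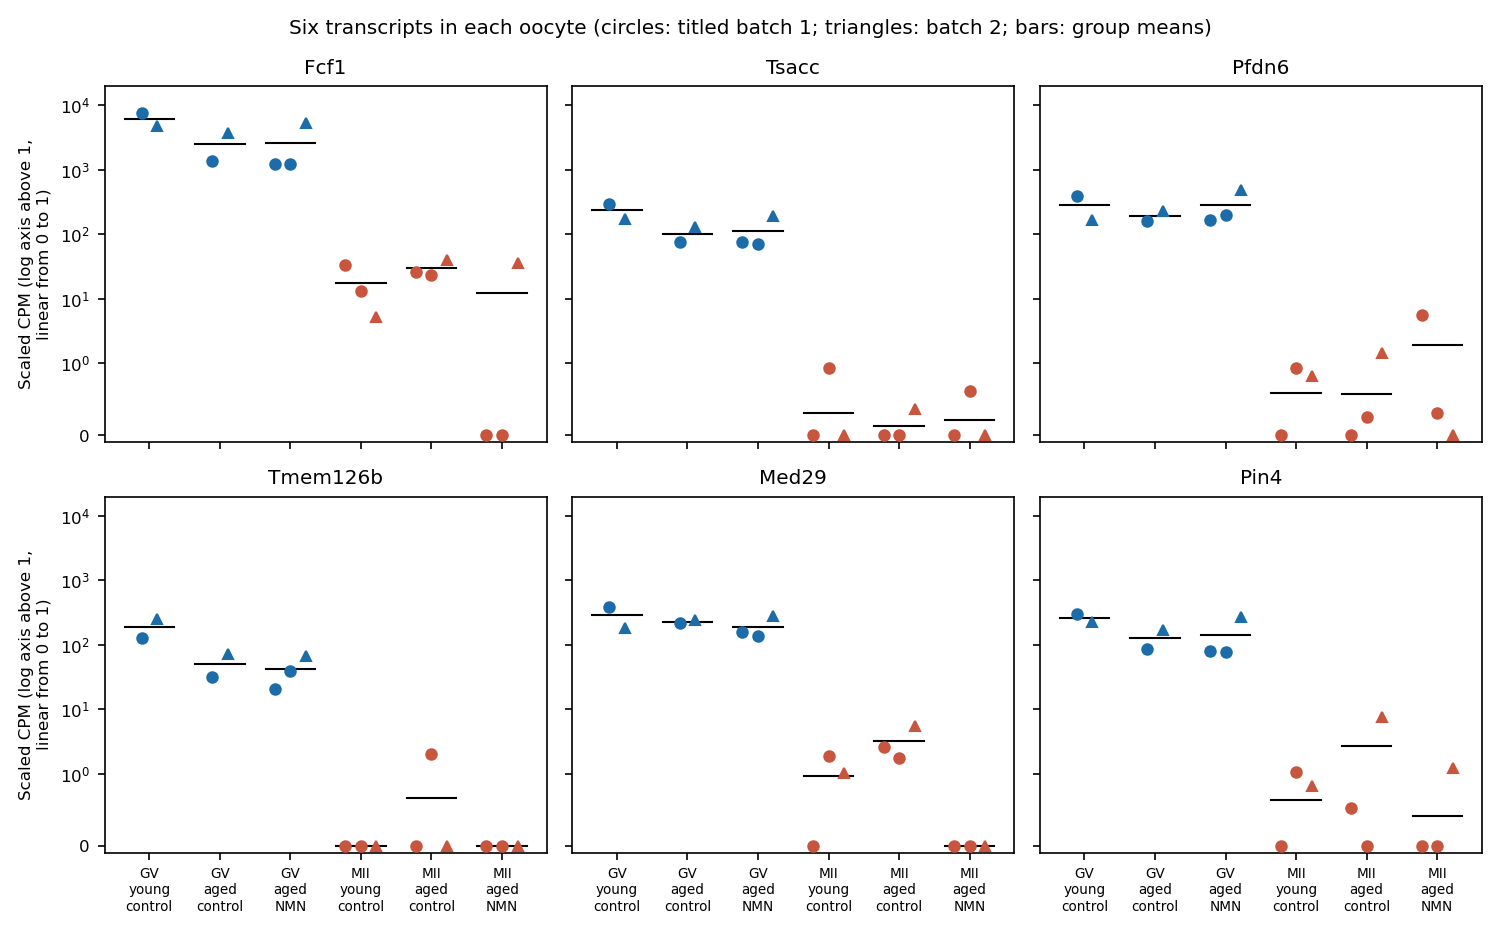
Scaled CPM of each of the 6 genes in each of the 16 oocytes (vertical axis logarithmic above 1 and linear from 0 to 1), by stage and condition, with GV in blue, MII in red and group means as bars. Fcf1 lies at or above 1218 CPM in all 7 GV oocytes and at or under 40.4 CPM in all 9 MII oocytes, and within each gene no GV value reaches down to an MII value.

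Pin4 and Pfdn6 followed in GV oocytes per length, with medians of 694 and 377 TPM over the 7 oocytes. Pin4, the prolyl isomerase, was at 299.7 and 229.6 CPM in young controls, 85.9 and 169 CPM in aged controls, and 79.3, 77.0 and 273 CPM with NMN. Its MII levels were 0, 1.09 and 0.826 CPM in young controls, 0.528, 0 and 7.63 CPM in aged controls, and 0, 0 and 1.25 CPM with NMN. The aged MII oocyte of batch 2, at 7.63 CPM or 21 counts, held most of the 39 Pin4 counts of all MII oocytes. Pfdn6, the prefoldin subunit, was at 398 and 170.1 CPM in young, 162 and 228 CPM in aged and 169, 203 and 486 CPM in NMN GV oocytes. Its MII levels were 0, 0.933 and 0.826 CPM in young, 0, 0.25 and 1.45 CPM in aged, and 5.53, 0.31 and 0 CPM in NMN oocytes. Its GV groups overlapped, and its highest MII value, 14 counts, came from the first NMN oocyte, in which Fcf1 had no count.

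Tsacc, the spermatid co-chaperone, was at 297 and 174 CPM in young, 75.4 and 129 CPM in aged and 77.0, 70.5 and 193 CPM in NMN GV oocytes. It had 9 counts in all MII oocytes together, of which 6 were in 1 young control, 1 in an aged control and 2 in an NMN oocyte, and the other 6 of 9 MII oocytes had none. Med29, the Mediator subunit, was at 388 and 184 CPM in young, 219.6 and 241 CPM in aged and 161, 137 and 278 CPM in NMN GV oocytes. In MII it was at 0, 1.87 and 1.03 CPM in young and 2.64, 1.75 and 5.45 CPM in aged controls, and had no count in the 3 NMN oocytes. Med29 was thus the only one of the 6 that all MII aged controls held and no MII NMN oocyte held. Tmem126b, the complex I assembly factor, had the lowest GV mean of the 6 in each condition. It was at 127 and 254 CPM in young, 31.4 and 71.4 CPM in aged and 20.8, 38.8 and 66.5 CPM in NMN GV oocytes. In the young oocyte at 254 CPM, however, it was above all the others but Fcf1. It had 8 counts in 1 aged control and none in the other 8 MII oocytes.

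Young oocytes are the contrast that chose the genes, and their ratios are given as a description that supports nothing. The log2 ratio of MII over GV, taken between group means after adding 1 CPM, was -8.40 for Fcf1, -7.58 for Tmem126b, -7.49 for both Tsacc and Pfdn6, -7.34 for Pin4 and -7.19 for Med29. These were ranks 1, 2, 3, 4, 6 and 9 from the lowest among 12161 genes. Slirp at -7.38, Snrpd2 at -7.33 and 1110020A21Rik at -7.30 lay between them, and Naa38 at -7.11 was the next below Med29, none of them a member. All 6 were at least 16-fold lower, as were 3.02% of all genes, and 4-fold lower, as were 14.9%, and all 6 were lower without overlap between oocytes, as were 16.3%.

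The genes were chosen for their fall in young oocytes, but with earlier results of these data known, so the aged oocytes are no independent check. All 6 transcripts were lower in MII than in GV oocytes there too. In aged controls the ratio was -6.97 for Pfdn6, -6.53 for Tsacc, -6.37 for Fcf1, -5.76 for Med29, -5.11 for Pin4 and -4.97 for Tmem126b. All 6 were at least 16-fold lower, against 3.74% of all genes, at least 4-fold lower, against 19.7%, and lower without overlap, against 27.4%. Their ranks from the lowest ran from 10 for Pfdn6 to 165 for Tmem126b. In the NMN condition the ratio was -7.62 for Fcf1, -7.59 for Med29, -6.67 for Pin4, -6.60 for Pfdn6, -6.57 for Tsacc and -5.43 for Tmem126b. Again all 6 were at least 16-fold lower, against 7.85% of genes, 4-fold lower, against 28.8%, and lower without overlap, against 27.1%, with ranks from 35 to 321. The median over all genes was 0.35 in young, -0.29 in aged and -0.82 in NMN oocytes, so in the NMN condition the whole distribution lay lower. The 16-fold limit was added after the values had been seen. Within titled batches, the median of the 6 in aged controls was -6.11 in batch 1 and -6.33 in batch 2, and with NMN it was -6.07 and -7.38. Immune markers moved with this contrast, summing to 9.81 to 237 CPM in aged control GV oocytes and 0 to 14.6 CPM in aged control MII oocytes, nearly all of it C1qb, with Ptprc, C1qa and Adgre1 at 0 in every group; their part in the result was not tested.

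**Figure D2:**
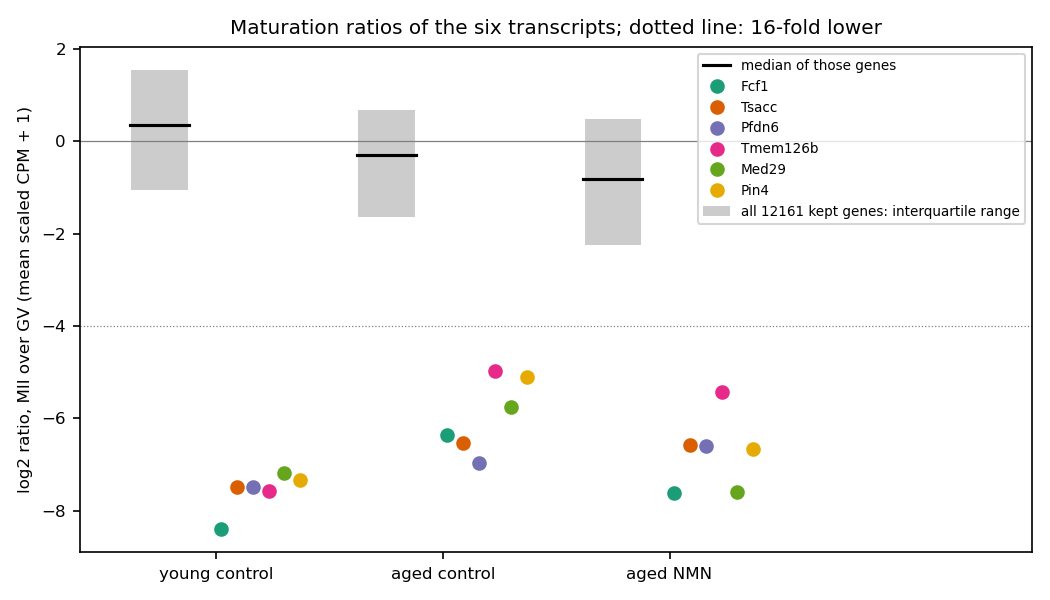
Log2 ratio of MII over GV in 3 conditions for the 6 genes (coloured points), beside the interquartile range and the median of all 12161 kept genes (grey bar and black line). Each of the 18 points lies below the dotted line at 16-fold lower, and the median of all genes lies at 0.35, -0.29 and -0.82.

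The differences were also taken as plain ratios of pooled counts, without the added 1 CPM. Fcf1 was 83.2 times higher in GV than in MII oocytes of aged controls (exact 95% interval of the counts 74.9 to 92.7) and 171 times with NMN (142 to 206), against 369 times in young controls (328 to 418). For the other genes few MII counts set wide intervals, as for Pfdn6 in aged controls at 472 times (202 to 1456) from 5 MII counts and Med29 at 76.8 times (55.6 to 109) from 37. Tsacc rested on 1 MII count in aged controls, at 1216 times (218 to 48082). Where a group had no count the ratio is a lower bound against 3 counts over the group. Tmem126b was at least 1015-fold higher in GV oocytes of young controls and at least 114-fold with NMN, and Med29 at least 541-fold with NMN. These intervals cover counting error only, not the spread between oocytes.

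In GV oocytes the means of all 6 genes were lower in aged than in young controls. The log2 ratio was -1.87 for Tmem126b, -1.28 for Fcf1, -1.19 for Tsacc, -1.05 for Pin4, -0.54 for Pfdn6 and -0.31 for Med29, while the median of all genes was 0.29. Fcf1, Tsacc, Tmem126b and Pin4 did not overlap between the 2 young and 2 aged oocytes, so 4 of 6 did not, against 10.7% of all genes that were lower without overlap. None of the 6 was 4-fold lower, against 2.94%. The young GV oocytes also enter the contrast that chose the genes, so a high young GV level was in part chosen. The titled batches differed more. With 1 oocyte per group in each, the ratio within batch 1 was -2.46 for Fcf1, -1.97 for Tsacc, -1.98 for Tmem126b, -1.79 for Pin4, -1.29 for Pfdn6 and -0.82 for Med29. Within batch 2 it was -0.36 for Fcf1, -0.42 for Tsacc and -0.44 for Pin4, it was above 0 for Pfdn6 at 0.42 and Med29 at 0.39, and only for Tmem126b, at -1.81, was it near its batch 1 value. The young oocyte of batch 1 is the library deposited under titles of both batches. Fractional counts were in 14.4% of its detected genes, within the 11.7 to 14.5% of batch 2 and outside the 19.3 to 27.5% of the others. The ratios given for batch 1 may thus compare oocytes of different batches. With this library read as batch 2, no batch 1 comparison is left. The batch 2 ratio was then -0.75 for Fcf1, -0.31 for Pfdn6 and -0.25 for Med29, with a median of -0.69 over the 6 genes. The direction for Pfdn6 and Med29 turns with that reading.

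Among the aged GV oocytes, all 6 transcripts were lower in batch 1 than in batch 2. The 3 aged oocytes of batch 1, 1 control and 2 with NMN, had 1218 to 1399 CPM of Fcf1 and the 2 of batch 2 had 3711 and 5355 CPM. Tsacc was at 70.5 to 77.0 CPM against 129 and 193 CPM, Pin4 at 77.0 to 85.9 against 169 and 273 CPM, and Tmem126b at 20.8 to 38.8 against 71.4 and 66.5 CPM. Pfdn6 and Med29 were closer, at 162 to 203 against 228 and 486 CPM and at 137 to 219.6 against 241 and 278 CPM. All 6 of 6 were lower without overlap, against 16.9% of all genes. The split was noted in these values, and what the batches were is not given in the sources used here. The genes did not move by 1 common factor: the count of Fcf1 over that of Med29 was 6.37 to 8.87 in the aged oocytes of batch 1 and 15.4 and 19.2 in those of batch 2, and that of Fcf1 over Tsacc was 15.96 to 18.6 and 28.7 and 27.7.

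**Figure D3:**
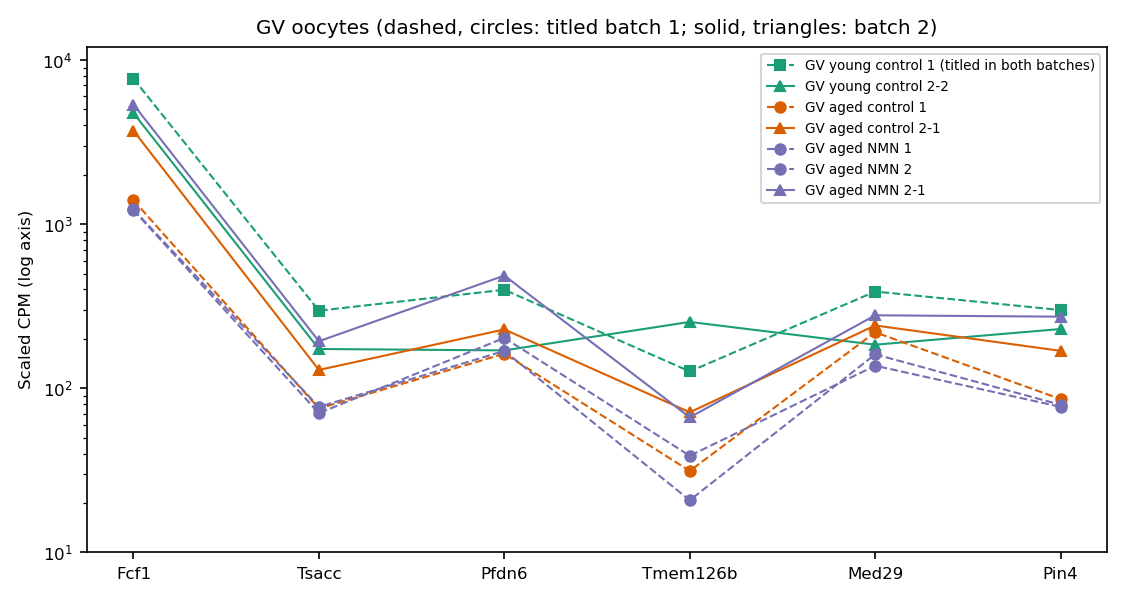
Scaled CPM (log axis) of the 6 genes in each of the 7 GV oocytes, with a line per oocyte, dashed for titled batch 1 and solid for batch 2. The 3 aged batch 1 lines run below both aged batch 2 lines at every gene, and the young oocyte titled in both batches lies highest for Fcf1, Tsacc, Med29 and Pin4.

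In the other comparisons of age and NMN the oocytes of both groups overlapped, with Med29 in MII oocytes as the exception. In MII oocytes the ratio of aged over young controls ran from -0.23 for Tsacc to 1.18 for Pin4, most values rest on under 40 counts, and all 6 genes overlapped between groups, against 6.14% of all genes that were lower and 2.25% that were higher without overlap. In GV oocytes the ratio of NMN over aged controls ran from -0.28 for Tmem126b to 0.55 for Pfdn6, again with overlap for all 6, against 8.12% of genes lower and 5.68% higher without overlap. In MII oocytes the ratio of NMN over aged controls was -2.10 for Med29, -1.39 for Pin4, -1.23 for Fcf1, -0.74 for Tmem126b, 0.11 for Tsacc and 0.91 for Pfdn6. Med29 was the 1 gene that was 4-fold lower, against 14.6% of all genes, and lower without overlap, against 11.7%. With 37 counts in the aged controls and none with NMN, it moved together with the lower number of detected genes in the NMN oocytes, whose part was not tested. These comparisons share their aged control oocytes with the maturation contrast above.

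In aged controls few partners of each gene in its complex or pathway had a ratio as low as its own. Beside Fcf1, 48 genes of the small-subunit processome and rRNA processing were listed, of which 47 were found in the tables and 45 passed the filter. Their median ratio of MII over GV was 0.03 in young, -0.08 in aged and -1.83 in NMN oocytes. In that order 7, 11 and 19 of 45 were at least 4-fold lower, against 14.9, 19.7 and 28.8% of all genes. In aged controls the lowest were Emg1, a methyltransferase of 18S rRNA, at -4.81, Aatf at -4.40 and Noc4l at -3.63. Mphosph10 and Nop56, both proteins of the processome, were higher at 1.90 and 1.76, as was Utp20 at 1.36. Emg1 was nearest to Fcf1, with 421 ± 112 CPM (n = 2) in aged GV and 14.0 ± 17.0 CPM (n = 3) in aged MII oocytes.

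Pfdn6 had the lowest ratio of its list in each condition, although with NMN Uxt came close, at -6.35 against -6.60. In young controls, the contrast that chose it, this place was in part chosen. Of 8 other prefoldin and prefoldin-like genes, 3, 2 and 3 were at least 4-fold lower in young, aged and NMN oocytes. The share of all genes was 14.9, 19.7 and 28.8%, and the medians of the 8 were -1.21, -1.23 and -0.34. In aged controls Uxt was at -3.66, Pdrg1 at -2.65, Vbp1 at -1.74, Pfdn5 at -1.25 and Pfdn1 at -1.21, and Pfdn2 at 0.07, Uri1 at 0.61 and Pfdn4 at 0.96. Pfdn4 was the most abundant, with 797 ± 430 CPM in aged GV (n = 2) and 1548 ± 1095 CPM in aged MII oocytes (n = 3), higher in the mean but with overlap between oocytes. Of the 8 CCT chaperonin genes, which take over prefoldin's clients, 1, 4 and 6 were 4-fold lower, against the same shares of all genes. The CCT medians were -0.74, -2.04 and -3.87. In aged controls Cct3 was at -3.04, Cct4 at -3.02, Cct7 at -2.08, Tcp1 at -2.07, Cct2 at -1.999 and Cct5 at -1.92, against Cct8 at 0.15 and Cct6a at 0.57.

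Med29 likewise had the lowest ratio of its list in each condition, in young controls again in part by the choice. Of 30 other Mediator genes listed, 28 passed the filter. In young, aged and NMN oocytes 4, 4 and 11 of these were at least 4-fold lower, with medians of -0.09, -0.30 and -1.22. The share of all genes was 14.9, 19.7 and 28.8%. In aged controls the lowest were Med24 at -3.51, Med8 at -3.01 and Med14 at -2.96, and the highest were Med30 at 1.78, Med31 at 1.38 and Med15 at 1.14, leaving out genes whose higher group was under 10 CPM. Med8 had 301 ± 0.916 CPM in aged GV (n = 2) and 36.5 ± 6.92 CPM in aged MII oocytes (n = 3), while Med30 had 232 ± 100.3 and 797 ± 438 CPM.

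Tmem126b had the lowest ratio among complex I assembly factors in young controls, the contrast that chose it, but not in aged controls or with NMN. Of 14 others that passed the filter, 4, 6 and 7 were at least 4-fold lower in young, aged and NMN oocytes, with medians of -0.76, -1.85 and -1.86. The share of all genes was 14.9, 19.7 and 28.8%. Ndufaf3 was at -6.55 in aged controls, below the -4.97 of Tmem126b, with 92.6 ± 23.0 CPM in GV (n = 2) and 0 in all 3 MII oocytes. Ndufaf5 was at -4.03 and Ndufaf6 at -2.67, and Ndufaf2 and Ndufaf4 at 0.18 and 0.14. Tmem126a, the paralog next to Tmem126b on chromosome 7, was at -2.63 in aged controls and -7.13 with NMN, where it had 139 ± 47.8 CPM in GV and 0 in all 3 MII oocytes. The kinases Tssk1, Tssk2, Tssk3, Tssk4 and Tssk6 had group means of at most 0.263 CPM, so the known client family of Tsacc was near 0 in these oocytes. The chaperone genes Hsp90aa1 and Hsp90ab1 had ratios of 1.47 and 1.45 in aged controls.

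**Figure D4:**
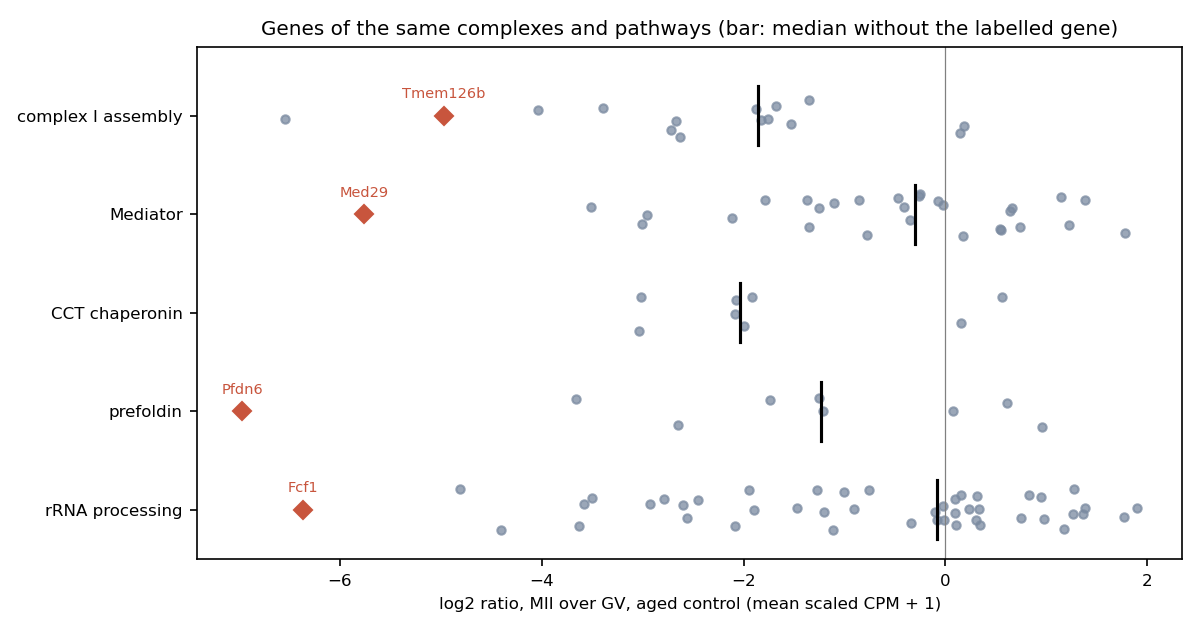
Log2 ratio of MII over GV in aged controls for each kept gene of 5 complexes and pathways (circles, spread vertically by a fixed random offset), with 4 of the 6 chosen genes as labelled diamonds and the median of the others as a bar. Fcf1, Pfdn6 and Med29 lie below every other gene of their list, and Tmem126b lies above Ndufaf3.

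Neighbouring genes gave another view of the same loci. A start site of a protein-coding gene on the opposite strand lay within 1000 bases, and facing away, for 5 of 6 members, all but Pin4, against 12.4% of 10765 kept protein-coding genes, an arrangement noticed after the loci had been seen. The partners were Arel1 for Fcf1, Cct3 for Tsacc at 117 bases, Wdr46 for Pfdn6 at 317, Dlg2 for Tmem126b at 671 and Paf1 for Med29 at 243. In aged controls the ratio was 1.20 for Arel1, a ubiquitin ligase, against -6.37 for Fcf1, with whose start its own overlaps. It was 0.10 for Wdr46, -1.35 for Paf1 and -1.54 for Dlg2, and -3.04 for Cct3. Arel1 was at 0.491 to 20.1 CPM in GV oocytes, where Fcf1 was at 1218 CPM or more, and at 0 to 81.8 CPM in MII oocytes. The partner genes thus did not have the ratios of the members they face. Over all kept protein-coding genes the median in aged controls was -0.45 with such a partner and -0.23 without.

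The 6 transcripts are short by their deposited lengths. These lengths were 489 bases for Pin4, 581 for Tsacc, 743 for Pfdn6, 748 for Fcf1, 1281 for Med29 and 1503 for Tmem126b, all under the median of 1961, and the first 4 lay in the shortest of 10 length classes of kept genes (deciles). For Tmem126b the GENCODE transcript used above for its end has 2259 bases, which is over that median. The maturation ratio moved with length over all kept genes. The shortest decile had medians of -1.45, -1.07 and -1.34 in young, aged and NMN oocytes, and the longest decile 0.78, 0.24 and -0.13. Of the shortest decile 12.3, 9.29 and 13.5% were at least 16-fold lower, and of the longest 0.411, 0.576 and 2.30%. The part of length in the members' ratios was not tested.

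**Figure D5:**
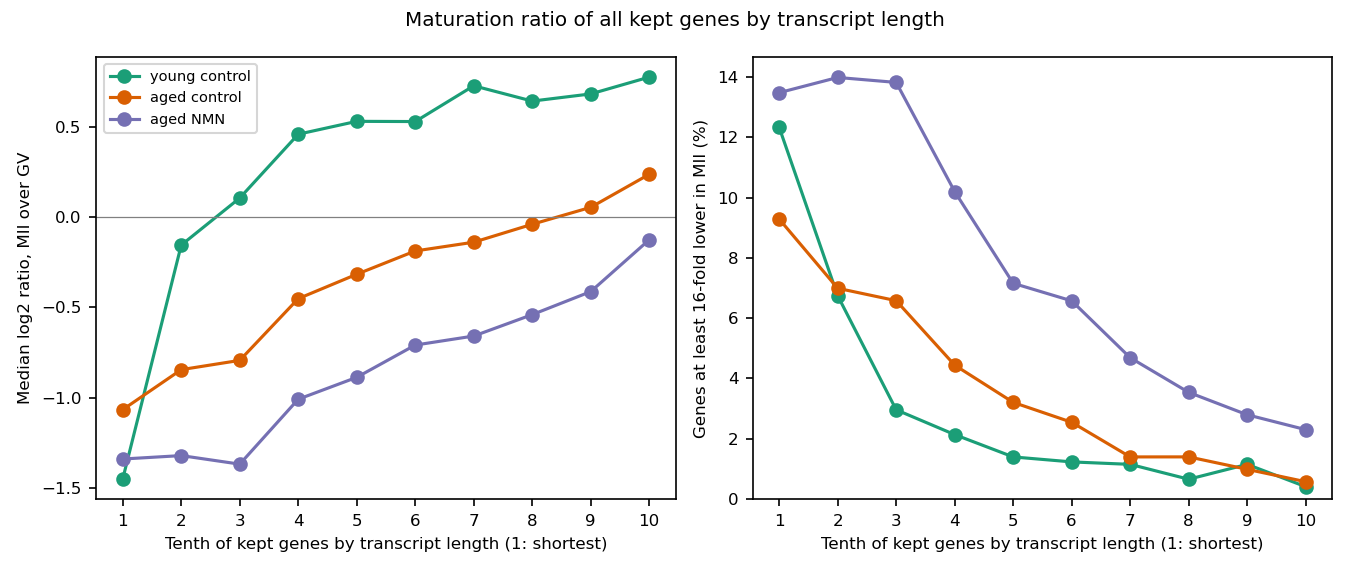
Median log2 ratio of MII over GV (left) and share of genes at least 16-fold lower in MII (right) for all kept genes in deciles by deposited transcript length, in 3 conditions. The aged control median climbs from -1.07 in the shortest to 0.24 in the longest decile, and its share at least 16-fold lower goes from 9.29 to 0.576%.

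Other genes followed the 6 across the 16 oocytes. Likeness was measured as Pearson's r of log2 (scaled CPM + 1), which here is set mostly by the gap between the stages that all these genes share, and the oocytes share batches and depth. Nearest to Fcf1 were Polr2i, a subunit of RNA polymerase II, at r = 0.994, Ndufa2, a subunit of complex I, at 0.990 and Psmb1, a proteasome subunit, at 0.989. Polr2i ranged from 271 to 1245 CPM before maturation and reached at most 31.9 CPM after it. Tsacc and Tmem126b had Dydc2 as their nearest gene, at 0.990 and 0.983, which had 9.14 to 70.5 CPM in GV and no count in any MII oocyte. Next for Tsacc were Tex45 at 0.988 and Tln1 at 0.986, and for Tmem126b Izumo4 at 0.979 and Pwp2 at 0.978. Nearest to Pfdn6 were Dpep3 at 0.977, Emc8 at 0.976 and Tln1 at 0.973. Med29 had Snrnp25, a protein of the minor spliceosome, at 0.989, Ndufs7 at 0.982 and Znrd1 at 0.982, and Pin4 had Lamb2 at 0.985, Cst3 at 0.984 and Lamtor4 at 0.983.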

How the data were processed

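Single-oocyte RNA sequencing tables were used as deposited. Per the file headers the authors gave an expected count (an estimated count of reads per gene, not normalised) and TPM, which the authors scaled by length and library. Per the submitters' processing notes the tools were TopHat2 2.1.1 and Cufflinks after Trim Galore 0.4.5 and FastQC 0.11.8, with the builds mm10 and GRCm38; the step that made the tables and the annotation version are not given in the sources used here.

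Symbols came from GENCODE vM21, which matched 46488 of 47069 identifiers. A library of 5008 counts was dropped for holding under 100000, and libraries identical in all genes (GV young control 1 and 2-1) were counted once. Batch was read from the titles; the MII NMN title that ends in batch 2 was read as oocyte 2 of batch 1. Expected counts were rounded, filtered with filterByExpr (minimum count 10; 12161 genes kept) and scaled with TMM in edgeR 4.0.16 (R 4.3.3); Python 3.11.15 with pandas 2.3.3 and numpy 2.4.6 did the rest. Ratios are log2 of group means after adding 1 CPM. Pooled counts carry exact 95% intervals for counting error, and a group at 0 was set to 3 counts over the group. The log2 ratio was tested on simulated counts. The interval of a pooled count was checked against known limits, and the interval of a ratio of pooled counts was not checked. No test between groups was run, since the labels name no animals.

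The 6 genes and all gene lists were chosen with earlier results of these data known. Named genes were the 6 themselves, the 3 nearest in pattern to each, overlapping and nearest protein-coding genes, every gene of lists of up to 12, and up to 3 per direction of longer lists by the ratio in aged controls with at least 10 CPM; the text names a part of these. Slirp, Snrpd2, 1110020A21Rik, Naa38 and Tmem126a were named after their values were seen. Alternatives tried were other scalings, TPM, added 0.1 or 10 CPM, no filter, medians, batches and leaving out each oocyte.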

Additional observations from a re-analysis of the deposited data

How the results depend on the processing

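In 49 of 49 alternatives the median of the 6 maturation ratios stayed below 0, as did 294 of 294 single-gene values. It depended on the added CPM: with 0.1 it was -8.59 in young and -8.32 in NMN oocytes, and with 10 it was -4.72 in young, -3.83 in aged and -4.11 in NMN oocytes, where 3 of 6 genes in aged controls and 3 of 6 with NMN were at least 16-fold lower. For NMN maturation (-6.64) it was -7.43 by TPM, -6.07 in batch 1, -7.38 in batch 2, -7.76 with the second MII NMN oocyte as batch 2, and -6.91 to -5.97 with 1 oocyte left out, -5.97 being without the GV NMN oocyte of batch 2. Without both MII NMN oocytes of fewest genes, added after seeing the data, it was -6.48. Age in GV (-1.12) gave -1.70 with the library of few counts kept, -1.88 in batch 1, -0.39 in batch 2 and -1.62 to -0.69 with 1 oocyte left out. The young oocyte behind that batch 1 value is the library titled in both batches. Age in MII (0.75) gave 0 by medians of oocytes, -0.11 in batch 1 and 0.06 without the aged MII oocyte of batch 2. NMN in GV (0.09) gave -0.66 to 0.66 with 1 oocyte left out, -0.66 being without the NMN oocyte of batch 2. NMN in MII (-0.98) gave -1.87 with 0.1 CPM added, -0.19 with 10, -0.31 by medians of oocytes, and -1.32 to -0.40 with 1 oocyte left out. The cause was not tested. The median of all genes was 0.35, -0.29 and -0.82 in young, aged and NMN maturation with TMM, 0.10, -0.42 and -0.88 with the size factors of DESeq2 and 0.67, -0.12 and -0.68 by TPM. Of 840 alternative values 703 stayed close to the main value, and 7 medians, all of age or NMN, changed sign. For a ratio, close means a move smaller than the spread between oocytes. For the number of genes at least 16-fold lower, it means an equal or similar number. Batch 1 with the duplicated library moved to batch 2 holds no young GV oocyte and gave no value for 2 comparisons. No paired analysis was possible because no result comes from a test and replicate numbers name only oocytes.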
